A study of Mus musculus with 9 samples.

Results

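The antigen presentation genes of the mouse H2 region, the major histocompatibility complex of the mouse, were followed in uterine luminal epithelium, the cell layer that faces the embryo. The members were all symbols of the deposited table that begin with H2- and 11 genes named beside them (B2m, Tap1, Tap2, Tapbp, Psmb8, Psmb9, Psmb10, Cd74, Ciita, Nlrc5 and Erap1). This gave 33 of the 15158 genes in the table. They were chosen by name, though with earlier results of these data known. Of the 33, 23 belonged to the class I side, 9 to the class II side and 1, H2-Ke6, to neither, since it encodes a hydroxysteroid dehydrogenase and only lies in the region. Tissue was taken by laser capture from pregnant females on pregnancy day 4, which had been kept until 8 weeks of age. There were 3 genotypes with 3 libraries each: ePRBoe (Wnt7acre/+PgrBLsL/+, extra progesterone receptor isoform B), ePRAoe (Wnt7acre/+PgrALsL/+, extra isoform A) and Wnt7acre, the control with the cre alone. The cre allele was thus carried by all groups. Wnt7a-cre is active in uterine epithelium, luminal and glandular, so that only epithelial cells are meant to gain the receptor. The labels number bioreplicates and do not say whether each is 1 animal, and the p-values therefore rest on the spread between libraries, which may in part be technical.

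Class I molecules sit on nearly all nucleated cells and show peptides made inside the cell to CD8+ T cells and natural killer cells. A heavy chain pairs with beta-2 microglobulin (B2m), and the peptides are cut by the immunoproteasome (Psmb8, Psmb9, Psmb10), carried into the endoplasmic reticulum by the Tap1 and Tap2 transporter, trimmed by Erap1 and loaded with the help of tapasin (Tapbp). Class II molecules show peptides taken up from outside to CD4+ T cells and are mainly made by dendritic cells, macrophages and B cells, and in epithelia under interferon gamma. The invariant chain (Cd74) guards the class II groove until H2-DM exchanges it for a peptide, and H2-O restrains H2-DM. Nlrc5 is the transactivator of class I genes and Ciita that of class II genes.

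Both transactivators act through a row of promoter elements, the X and Y boxes among them, and class I promoters also carry a kappaB site and an interferon response sequence. To show these elements, 180 bases before the start site are printed for the classical class I chains H2-K1 and H2-D1. They are also printed for the non-classical chain H2-T23 and for H2-T-ps, both of which were lower in ePRAoe, and for the class II chains H2-Aa and H2-Eb1. All sequences are from RefSeq on GRCm38.p6, and 24 of the 33 members matched a promoter there. The stretches are chr17:34000348-34000527 (reverse strand) for H2-K1, chr17:35262914-35263093 (forward) for H2-D1, chr17:36032702-36032881 (reverse) for H2-T23, chr17:36111677-36111856 (reverse) for H2-T-ps, chr17:34287824-34288003 (reverse) for H2-Aa and chr17:34305687-34305866 (forward) for H2-Eb1. Capitals mark matches to the motifs described after the sequences.
H2-K1: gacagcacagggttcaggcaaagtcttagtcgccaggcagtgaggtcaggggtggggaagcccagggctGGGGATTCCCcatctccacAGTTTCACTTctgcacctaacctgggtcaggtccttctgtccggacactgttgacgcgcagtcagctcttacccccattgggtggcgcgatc
H2-D1: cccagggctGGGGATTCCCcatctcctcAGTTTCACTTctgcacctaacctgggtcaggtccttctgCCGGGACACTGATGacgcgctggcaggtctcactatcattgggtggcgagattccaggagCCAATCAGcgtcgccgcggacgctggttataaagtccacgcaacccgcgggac
H2-T23: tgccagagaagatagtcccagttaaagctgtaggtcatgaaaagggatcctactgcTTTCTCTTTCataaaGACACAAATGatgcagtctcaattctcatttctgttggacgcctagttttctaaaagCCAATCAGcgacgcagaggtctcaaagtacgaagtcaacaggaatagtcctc
H2-T-ps: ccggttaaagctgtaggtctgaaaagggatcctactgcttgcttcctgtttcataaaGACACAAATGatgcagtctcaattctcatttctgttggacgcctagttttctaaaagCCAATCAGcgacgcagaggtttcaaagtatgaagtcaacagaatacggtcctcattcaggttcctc
H2-Aa: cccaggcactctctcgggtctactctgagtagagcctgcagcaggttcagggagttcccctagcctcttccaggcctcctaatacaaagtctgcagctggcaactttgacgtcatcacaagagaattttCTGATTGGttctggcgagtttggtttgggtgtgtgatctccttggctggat
H2-Eb1: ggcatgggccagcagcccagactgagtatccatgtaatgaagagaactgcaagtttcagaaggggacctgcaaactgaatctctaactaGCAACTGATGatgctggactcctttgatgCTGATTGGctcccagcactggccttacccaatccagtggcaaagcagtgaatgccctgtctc

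The motifs were searched on both strands of all 32851 promoter windows of 300 bases (250 before the start site and 50 after it). The kappaB site, the first capitals of H2-K1 and of H2-D1, lay in 0.262% of windows and in the H2-K1 and H2-D1 windows alone among the members. The interferon response sequence, the second capitals of both, lay in 0.484% of windows and in 6 of the 17 class I members with a window (H2-D1, H2-K1, H2-M2, H2-Q10, H2-Q4 and H2-T22), against 0 of 6 class II members. The X box core, which ends in ATG in the capitals of H2-T23, H2-T-ps and H2-Eb1, lay in 8.97% of all windows, in 8 of 17 class I members and in 3 of 6 class II members. A longer X box, which holds the core, as in the third capitals of H2-D1, lay in 0.749% of windows and in H2-D1, H2-M3, H2-Q4 and H2-DMb1. The Y box (CTGATTGG) lay in 4.10% of windows, in 6 of 17 class I and in 3 of 6 class II members, H2-Aa and H2-Eb1 included. A further interferon element, which can overlap the interferon response sequence and is the first capitals of H2-T23, lay in 3.44% of windows and in B2m, Erap1, H2-T22 and H2-T23. In H2-T23 and H2-T-ps the X box core and the Y box had the same letters, and the core began 109 bases before the start site of H2-T23 and 123 bases before that of H2-T-ps. Matches describe these letters only.

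Of the 33 members, 27 lie on chromosome 17 in mm10, the build named for the alignment. From one end of the region to the other they begin with Tapbp (33915899 to 33929292, forward strand) and end with H2-M2 (37480851 to 37483552, reverse strand). B2m lies on chromosome 2, Psmb10 and Nlrc5 on 8, Cd74 on 18, Ciita on 16 and Erap1 on 13. Tap1 and Psmb9 stand head to head, with start sites 226 bases apart, so that their promoter windows share 275 bases.

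The values are FPKM, reads per kilobase of gene scaled to the depth of the library, and they summed to between 272213 and 314010 per library. Pgr checked the labels of overexpression, with means of 40.8 ± 4.48 FPKM in ePRBoe and 44.7 ± 4.19 FPKM in ePRAoe, against 9.28 ± 7.17 FPKM in Wnt7acre (SD, n = 3 each), and it was called higher in both. Between ePRBoe and ePRAoe it was not called (log2 fold change -0.10, limma adjusted p = 0.911), so it did not check which isoform a library carried. Epithelium markers were high in all 9 libraries (12 genes, summed FPKM 1885 to 2156 in ePRBoe, 1520 to 2219 in ePRAoe and 1820 to 2135 in Wnt7acre). Genes of other cells were present too. The 12 stroma markers summed to 387 to 549 FPKM in ePRBoe and 233 to 389 in ePRAoe, against 86.7 to 119 in Wnt7acre. In each overexpressing genotype 10 of 12 were called higher than in Wnt7acre, against 6.41% of all genes in ePRBoe and 7.20% in ePRAoe. The 9 endothelium markers summed to 49.9 to 74.3, 16.0 to 33.7 and 13.8 to 20.5 FPKM in ePRBoe, ePRAoe and Wnt7acre. All ePRBoe libraries came from sequencing run 1, with ePRAoe replicate 2 and Wnt7acre replicate 3, while run 2 held ePRAoe replicate 3 and Wnt7acre replicate 2 and run 3 held replicate 1 of ePRAoe and of Wnt7acre. Folds were fitted with a term for the run and so differ from ratios of the means.

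With extra isoform A, 4 class I genes were lower. Of the 19 class I members tested in ePRAoe against Wnt7acre, 4 fell (H2-T23, H2-T-ps, Tap1 and Psmb10) and 0 rose at an adjusted p under 0.05. Nlrc5 reached 1 FPKM in the Wnt7acre libraries alone and passed the filter through them, so that all other libraries lay below them. It is left out of the counts against Wnt7acre that follow. Of the other 18, 16 log2 fold changes were below 0, with a median of -0.57. Over all 12347 genes tested, 8.98% were called lower and 7.20% higher, 53.0% of folds were below 0 and the median was -0.03. The 4 calls make 22.2% of the 18 and 14.3% of the 28 members of any kind tested. In tissue bulk RNA, fewer cells of a type and less RNA per cell cannot be told apart.

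H2-T23 encodes Qa-1, the non-classical chain that presents signal peptides of other class I chains to the CD94-NKG2A receptor of natural killer cells. It stood at 28.4, 8.25 and 10.6 FPKM in ePRAoe replicates 1 to 3, against 72.1, 37.9 and 35.7 FPKM in Wnt7acre replicates 1 to 3. The groups did not overlap, and the library of run 3 was the highest of each. The log2 fold change was -1.68 (SE 0.28, 3.21-fold lower, limma adjusted p = 0.00804), and within runs 1, 2 and 3 the log2 difference was -1.99, -1.75 and -1.32. H2-T-ps, annotated as an unprocessed pseudogene (chromosome 17, 36109234 to 36111658), had 9.15, 5.25 and 3.83 FPKM in ePRAoe, against 13.6, 10.7 and 14.2 in Wnt7acre. It was lower in 3 of 3 libraries (log2 fold change -1.03, SE 0.19, adjusted p = 0.0122). H2-T-ps shared 29.4% of its stretches of 50 bases with other genes. Its closest relative in sequence was H2-T23, with which it shared 18.0%, so that reads may have been split between such genes. For H2-T23 and H2-T-ps alike, exact permutation of the libraries (two-sided) gave p = 0.1, the smallest that 20 regroupings of 3 against 3 allow.

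The classical chains H2-K1 and H2-D1, which present to CD8+ T cells, were the highest of the class I chains and did not pass. H2-K1 (chromosome 17, 33996017 to 34000347) had 230, 120 and 80.2 FPKM in ePRAoe, against 224, 207 and 190 in Wnt7acre (log2 fold change -0.66, SE 0.27, adjusted p = 0.134). H2-D1 (35262730 to 35267499) had 169, 81.5 and 56.6 FPKM in ePRAoe, against 173, 175 and 146 in Wnt7acre (-0.82, SE 0.27, adjusted p = 0.0801). ePRAoe replicate 1 thus stood within or above the control range for both chains, and replicates 2 and 3 stood below it. Without ePRAoe replicate 1 both chains were called lower (H2-K1 -1.01, adjusted p = 0.0308, and H2-D1 -1.22, adjusted p = 0.0132). Leaving out Wnt7acre replicate 1 gave the same folds, since run 3 held only these libraries. Either setting drops the difference within run 3, so they are not separate checks. The 14 class I chains summed to 466, 227 and 166 FPKM in ePRAoe replicates 1 to 3 and to 512, 455 and 412 FPKM in Wnt7acre replicates 1 to 3.

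Among the other tested chains 1 of 6 had a fold above 0, H2-T24 (0.06, adjusted p = 0.861), with 8.68, 5.92 and 5.68 FPKM in ePRAoe and 6.97, 6.79 and 5.40 in Wnt7acre. H2-Q2, H2-Q4, H2-M3, H2-T10 and H2-T22 had folds of -0.90 to -0.34 and did not pass. H2-M3 is known for presenting formylated bacterial peptides. H2-Q4 ran from 2.21 to 16.9 FPKM within ePRAoe, with replicate 1 again the highest, against 10.1 to 14.2 FPKM in Wnt7acre. It shared 36.9% of its stretches of 50 bases with other genes, so its values are uncertain. H2-K2, H2-M2, H2-Q10 and H2-Q5 did not reach 1 FPKM in at least 3 libraries and were not tested, and H2-M2 was listed at 0 in all ePRAoe libraries. H2-K2 is annotated as a transcribed unprocessed pseudogene, and H2-Q5 and H2-T10 as polymorphic pseudogenes. Like H2-T-ps, they are counted among the class I chains.

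**Figure D1:**
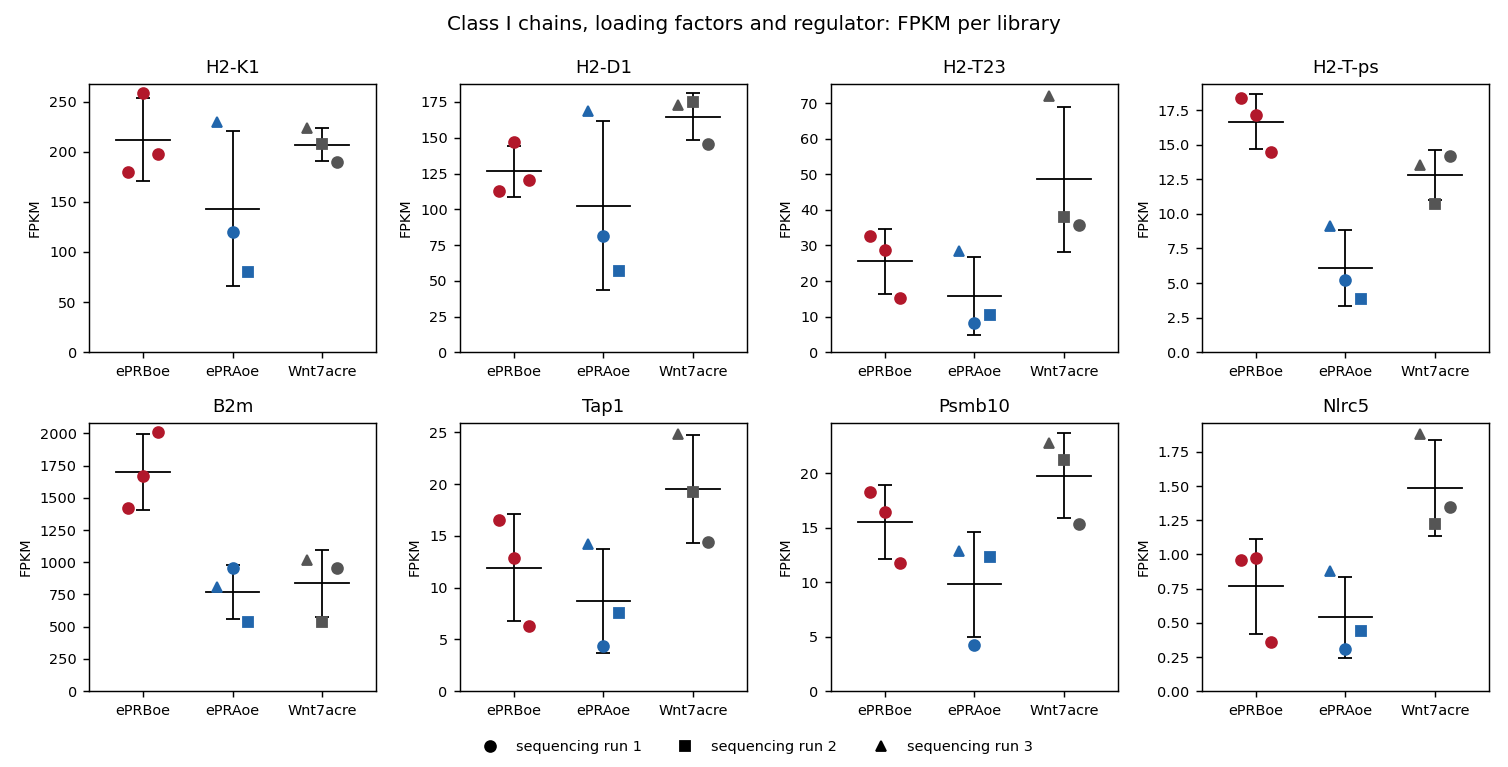
FPKM of 8 class I genes in each library (points, shaped by sequencing run) with the mean and SD of 3 libraries per genotype (line and bar), on linear axes that start at 0. The 3 ePRAoe libraries of H2-T23, H2-T-ps, Tap1 and Psmb10 lie below the 3 Wnt7acre libraries, as was so for 16.2% of all genes tested. B2m is highest in the 3 ePRBoe libraries, at 1424 to 2010 FPKM.

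Among the genes of peptide supply, Tap1 and Psmb10 were lower. Tap1 (chromosome 17, 34187553 to 34197225) fell to 14.2, 4.33 and 7.55 FPKM in ePRAoe, against 24.9, 19.2 and 14.5 in Wnt7acre (log2 fold change -1.18, SE 0.32, adjusted p = 0.0431). Its partner Tap2 had 2.69, 2.69 and 2.53 FPKM in ePRAoe, against 4.79, 3.91 and 3.54 in Wnt7acre, with no overlap, but did not pass (-0.48, adjusted p = 0.162). Psmb10 (chromosome 8, 105935735 to 105938444) fell to 12.9, 4.25 and 12.3 FPKM in ePRAoe, against 22.7, 21.2 and 15.3 in Wnt7acre (-1.05, SE 0.23, adjusted p = 0.0216). The other inducible subunits did not pass, Psmb8 at -0.50 (adjusted p = 0.0920) and Psmb9 at -0.63 (0.0675), and their libraries overlapped. Without a run term the calls of Tap1 and Psmb10 were lost (adjusted p = 0.0967 and 0.0876). None of the 4 calls held without ePRAoe replicate 2 or Wnt7acre replicate 3, both of run 1. The same was so without ePRAoe replicate 3 or Wnt7acre replicate 2, both of run 2. Within each pair the folds were the same, so its settings are not separate checks (folds of -1.65 to -0.76, adjusted p = 0.0509 to 0.192). The call of Tap1 was also lost without ePRBoe replicate 2 (0.0660) and with no filter on low values (0.0523).

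Tapasin and the trimming peptidase did not pass. Tapbp had 116, 91.3 and 60.8 FPKM in ePRAoe, against 111, 57.8 and 61.0 in Wnt7acre (0.24, adjusted p = 0.321), and Erap1 had 23.3, 12.4 and 13.9 FPKM in ePRAoe, against 22.7, 17.9 and 17.5 in Wnt7acre (-0.26, adjusted p = 0.313). B2m was at 809, 956 and 540 FPKM in ePRAoe, against 1014, 540 and 953 in Wnt7acre (-0.11, SE 0.22, adjusted p = 0.782), and the libraries overlapped. Nlrc5 was low throughout, with 0.876, 0.306 and 0.438 FPKM in ePRAoe, against 1.88, 1.23 and 1.35 in Wnt7acre. It did not pass (-0.70, SE 0.22, adjusted p = 0.0666). Since it passed the filter through Wnt7acre alone, its lack of overlap is not counted. Without it, 6 of 18 class I members had no overlap and were lower in ePRAoe (33.3%), against 16.2% of all genes tested, and 0 had no overlap and were higher (12.6% of all genes). Without ePRAoe replicate 1 the lower count was 13 of 18, against 26.8% of all genes at that setting. Without any other 1 library of these genotypes it was 6 to 8 of 18, against 18.7% to 22.9% of all genes. Without Wnt7acre replicate 1, of the same run, it was 7 of 18.

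With extra isoform B the class I folds lay near those of all genes in sign and median. None of the 19 passed against Wnt7acre in limma, where 6.41% of all genes were called higher and 2.48% lower (8.89% in either direction), and 2 had an unadjusted p under 0.05, both higher (B2m and H2-T10), against 17.5% of all genes higher at that p. Of the 18 folds without Nlrc5 7 were below 0, against 40.5% of all genes, and the median log2 fold change was 0.15, against 0.10 over all genes. B2m (chromosome 2, 122147686 to 122153083) had 1424, 1667 and 2010 FPKM in ePRBoe, against 1014, 540 and 953 FPKM in Wnt7acre. All ePRBoe libraries lay above all others, and B2m ranked 2nd or 3rd of all genes in ePRBoe, 10th to 23rd in ePRAoe and 7th to 29th in Wnt7acre. The log2 fold change of 0.76 (SE 0.27, adjusted p = 0.128) did not pass, whereas with quantile normalization it did (0.88, adjusted p = 0.0367). The 14 class I chains summed to 368, 479 and 365 FPKM in ePRBoe, within or below the 412 to 512 FPKM of Wnt7acre. B2m stood at 3.48 to 5.51 times that sum in ePRBoe and at 1.73 to 4.20 times in ePRAoe, which overlapped both other genotypes, against 1.19 to 2.32 times in Wnt7acre.

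H2-T23 had 32.5, 28.7 and 15.3 FPKM in ePRBoe, below each Wnt7acre library (35.7 to 72.1), and did not pass (-0.38, SE 0.34, adjusted p = 0.528). Nlrc5, which passed the filter through the controls alone, had 0.963, 0.974 and 0.361 FPKM in ePRBoe, against 1.23 to 1.88 in Wnt7acre (-0.36, adjusted p = 0.449). H2-T24 had 3.52, 3.48 and 4.74 FPKM in ePRBoe, below its 5.40 to 6.97 in Wnt7acre (-0.42, adjusted p = 0.273). H2-T10 had 2.54, 3.70 and 1.86 FPKM in ePRBoe, against 1.73, 0.708 and 1.31 in Wnt7acre (0.89, SE 0.31, adjusted p = 0.123). H2-T10 and H2-T22 shared 50.1% and 58.5% of their stretches of 50 bases with other genes, mostly with each other, and their values are uncertain for that reason. H2-K1 had 179, 258 and 198 FPKM in ePRBoe and H2-D1 had 113, 147 and 120, with adjusted p of 0.830 and 0.745 against Wnt7acre. Tap1 (16.6, 12.8 and 6.34 FPKM in ePRBoe) and Psmb10 (18.3, 16.5 and 11.7) overlapped the controls, with adjusted p of 0.821 and 0.575. Of the 18 without Nlrc5, 3 had no overlap and were higher (16.7%) and 2 had no overlap and were lower (11.1%), against 23.5% and 16.3% of all genes tested (39.8% in either direction). The lower count was 5 without ePRBoe replicate 1 or Wnt7acre replicate 3, against 21.8% and 20.6% of all genes at those settings. Without any other 1 library of these genotypes it was 2 or 3, against 18.2% to 22.6% of all genes.

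Between the isoforms, 17 of 19 class I folds were above 0 in ePRBoe against ePRAoe, with a median of 0.79 against 0.15 over all genes, of which 34.0% had a fold below 0. None passed in limma, where 0.316% of all genes were called higher and 0.00810% lower, and 11 of 19 had an unadjusted p under 0.05, all higher, against 15.2% of all genes higher at that p. H2-T-ps was the nearest to the threshold (log2 fold change 1.37, SE 0.23, adjusted p = 0.0706), with 18.3, 17.2 and 14.4 FPKM in ePRBoe against 9.15, 5.25 and 3.83 in ePRAoe. Psmb10 (1.34, adjusted p = 0.0918) and H2-T23 (1.30, adjusted p = 0.126) had similar folds, but their libraries overlapped. B2m did not overlap (0.87, SE 0.27, adjusted p = 0.166). In all, 4 of 19 had no overlap and were higher, against 16.8% of all genes tested, and 1, H2-T24, had no overlap and was lower, against 5.80%. The first count was 11 without ePRAoe replicate 1 and 9 without ePRBoe replicate 3, against 32.2% and 23.2% of all genes at those settings. Without any other 1 library of these genotypes it was 4 or 5, against 19.5% to 25.6% of all genes.

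**Figure D2:**
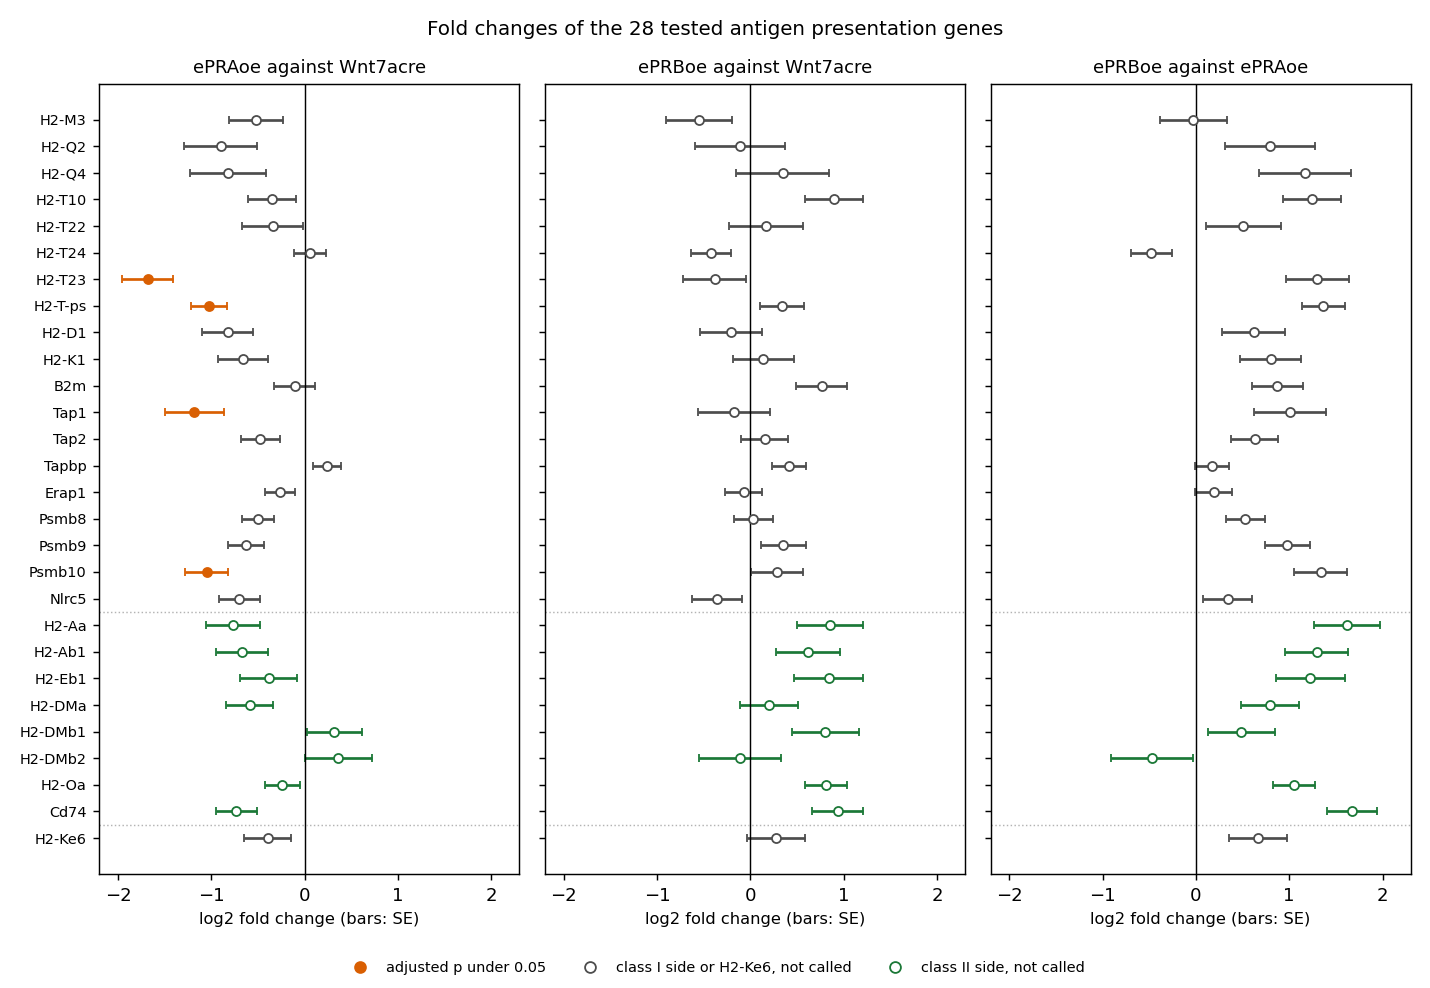
Log2 fold changes on the log2(FPKM + 1) scale with their SE for the 28 tested members in the 3 comparisons (limma, run as a term), filled where the adjusted p was under 0.05, with dotted lines between the class I side, the class II side and H2-Ke6. The 4 filled points are H2-T23, H2-T-ps, Tap1 and Psmb10 in ePRAoe against Wnt7acre. In ePRBoe against ePRAoe 25 of 28 points lie above 0, while 34.0% of all genes had a fold below 0. H2-Oa, which passed the filter through ePRBoe alone, is among the 25.

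The class II chains and Cd74 had their highest means in ePRBoe and their lowest in ePRAoe, although no single gene passed. H2-Aa, the alpha chain of the A molecule (chromosome 17, 34282744 to 34287823), had 41.7, 70.2 and 37.9 FPKM in ePRBoe, 24.0, 12.2 and 24.2 in ePRAoe and 46.4, 25.5 and 31.8 in Wnt7acre. H2-Ab1, its beta chain (34257689 to 34269419), had 34.2, 62.6 and 36.8 FPKM in ePRBoe, 21.0, 17.7 and 19.1 in ePRAoe and 52.7, 21.7 and 26.5 in Wnt7acre. H2-Eb1, the beta chain of the E molecule (34305867 to 34316674), had 10.5, 21.8 and 9.43 FPKM in ePRBoe, 7.52, 4.74 and 6.24 in ePRAoe and 12.3, 6.33 and 7.15 in Wnt7acre. For all 3 chains replicate 2 was the highest of ePRBoe and replicate 1 the highest of Wnt7acre, and the ePRBoe libraries lay above all ePRAoe libraries. The 3 chains shared 0% to 0.630% of their stretches of 50 bases with other genes.

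In ePRBoe against ePRAoe the log2 fold changes of H2-Aa, H2-Ab1 and H2-Eb1 were 1.62 (SE 0.36, adjusted p = 0.0964), 1.29 (SE 0.34, adjusted p = 0.128) and 1.23 (SE 0.37, adjusted p = 0.155). Cd74, the invariant chain, had 62.5, 109 and 68.2 FPKM in ePRBoe against 50.5, 21.7 and 29.9 in ePRAoe, with the largest class II fold (1.67, SE 0.27, adjusted p = 0.0627). Of the 8 class II members tested, 0 passed in limma, against 0.324% of all genes in either direction. H2-Oa reached 1 FPKM in the ePRBoe libraries alone and passed the filter through them, so that all other libraries lay below them. It is left out of the following counts of ePRBoe. Of the other 7, 5 had an unadjusted p under 0.05, all higher, against 15.2% of all genes. In 5 of 7 (71.4%) the ePRBoe libraries lay above all ePRAoe libraries, against 16.8% of all genes tested, and the median fold was 1.23 against 0.15. Within run 1, the only run that held both genotypes, the log2 differences of H2-Aa, H2-Ab1, H2-Eb1 and Cd74 were 1.89, 1.24, 1.29 and 1.79, with 1 ePRAoe library.

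Against Wnt7acre 0 of 8 class II genes passed in ePRBoe and 0 of 8 in ePRAoe (limma). Of all genes, 8.89% and 16.2% passed there in either direction. In ePRAoe, H2-Aa (-0.77, adjusted p = 0.115) and H2-Ab1 (-0.67, adjusted p = 0.142) were below every control library and did not pass. Cd74 had 50.5, 21.7 and 29.9 FPKM in ePRAoe, against 71.4, 50.6 and 43.6 FPKM in Wnt7acre (-0.73, SE 0.22, adjusted p = 0.0609), and passed without ePRBoe replicate 2 (adjusted p = 0.0264). In ePRAoe 4 of 8 class II members had an unadjusted p under 0.05, all lower, against 17.2% of all genes, and 3 of 8 (37.5%) had no overlap and were lower, against 16.2% of all genes. Without ePRAoe replicate 1 that count was 6 of 8, against 26.8% of all genes, and 1 of 8 had no overlap and was higher, against 18.2%. Without any other 1 library of these genotypes the lower count was 3 or 4 of 8, against 18.7% to 22.9% of all genes. In ePRBoe 2 of the 7 without H2-Oa had an unadjusted p under 0.05, both higher (H2-Aa and Cd74), against 17.5% of all genes. The fold of Cd74 was 0.94 (SE 0.27, adjusted p = 0.0749), that of H2-Aa 0.85 (adjusted p = 0.183), that of H2-Eb1 0.84 (adjusted p = 0.202) and that of H2-Ab1 0.62 (adjusted p = 0.301), and the libraries of all 4 overlapped with those of Wnt7acre.

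The peptide exchange factors were low. H2-DMa, the alpha chain of H2-DM, had 2.42, 4.29 and 2.92 FPKM in ePRBoe, 0.843, 1.90 and 0.703 in ePRAoe and 2.14, 2.32 and 1.97 in Wnt7acre. Its ePRAoe libraries lay below and its ePRBoe libraries above all controls, with adjusted p of 0.154 and 0.729 against Wnt7acre. The beta chains H2-DMb1 and H2-DMb2 did not share this order. H2-DMb1 had 4.68, 5.45 and 3.79 FPKM in ePRBoe, 5.03, 2.546 and 3.26 in ePRAoe and 1.54, 4.14 and 2.61 in Wnt7acre, and H2-DMb2 ran from 0.0970 to 3.87 FPKM within ePRAoe alone. The pair shared 27.2% and 30.9% of their stretches of 50 bases with other genes, mostly with each other. H2-Oa, which restrains H2-DM mainly in B cells, had 1.01, 1.02 and 1.09 FPKM in ePRBoe, 0.290, 0 and 0 in ePRAoe and 0.725, 0.0720 and 0.145 in Wnt7acre. Its fold of 1.05 against ePRAoe (adjusted p = 0.0954) is that of a gene which passed the filter through ePRBoe alone. Ciita, the class II transactivator, was not tested, at 0.177, 0.216 and 0.469 FPKM in ePRBoe, 0.0510, 0.0630 and 0.266 in ePRAoe and 0.266, 0.203 and 0.279 in Wnt7acre.

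**Figure D3:**
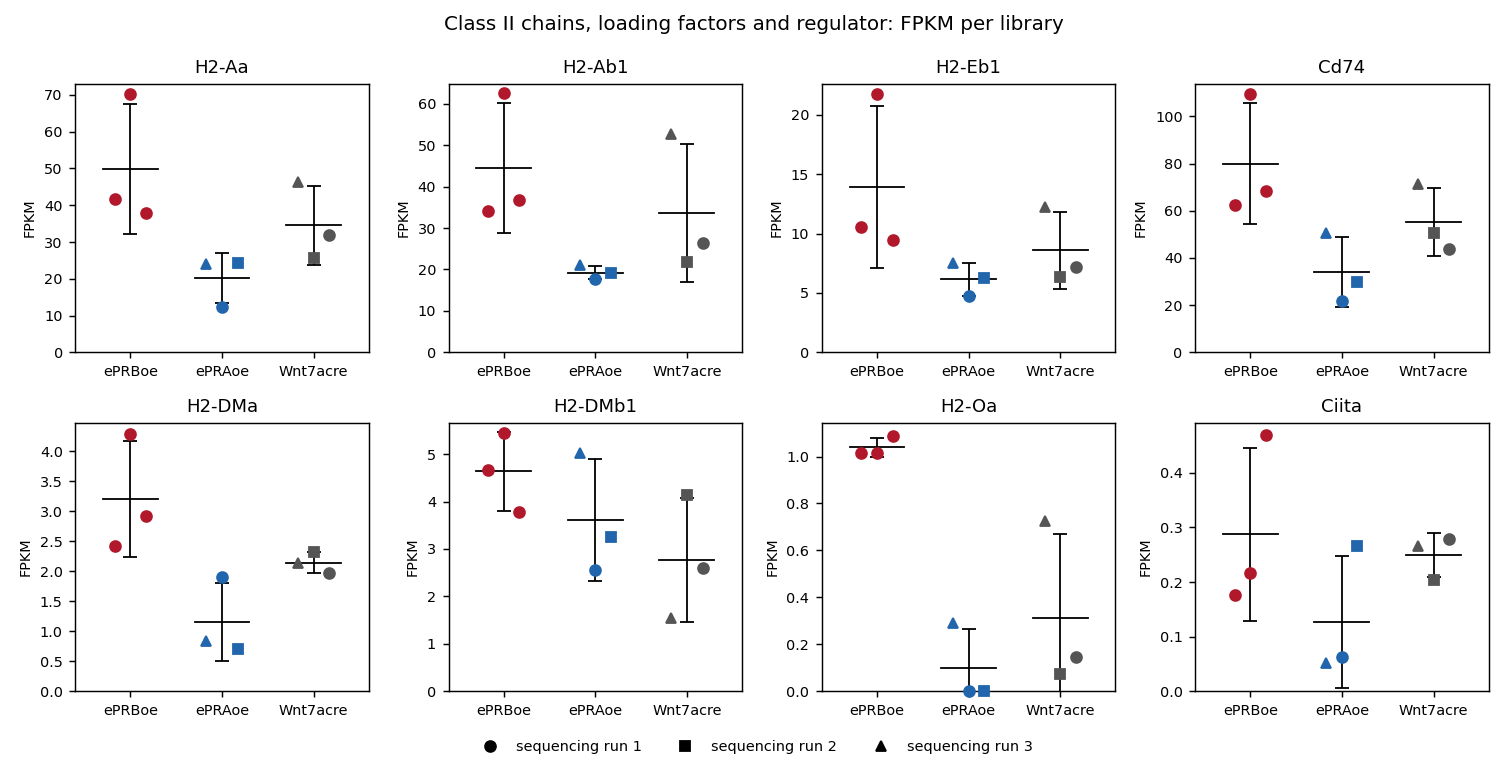
FPKM of 8 class II genes in each library (points, shaped by sequencing run) with the mean and SD of 3 libraries per genotype (line and bar, cut where a bar would pass below 0), on linear axes that start at 0. H2-Aa, H2-Ab1, H2-Eb1, Cd74 and H2-DMa are higher in each of the 3 ePRBoe libraries than in any ePRAoe library, as were 16.8% of all genes tested. H2-Oa is too, but it passed the filter through ePRBoe alone, so this is not counted. For H2-Aa, H2-Ab1, H2-Eb1 and Cd74, ePRBoe replicate 2 is the highest library.

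Macrophage and monocyte markers were in part called in all 3 comparisons, in which no class II gene passed. The 13 macrophage and monocyte markers summed to 420, 421 and 360 FPKM in ePRBoe, 232, 163 and 154 in ePRAoe and 423, 208 and 207 in Wnt7acre, with none at 0 in any library. In ePRBoe against ePRAoe 4 of the 11 tested rose (Tyrobp, Fcer1g, C1qc and C1qa) and 0 fell, against 0.316% and 0.00810% of all genes. In 9 of 11 the ePRBoe libraries lay above all ePRAoe libraries, against 16.8% of all genes. C1qa, which encodes a complement subunit, averaged 10.1 ± 2.64 FPKM in ePRBoe and 2.98 ± 1.57 FPKM in ePRAoe (SD, n = 3 each), and its call was lost without any 1 of 6 libraries and without a run term. All 4 calls were lost without ePRBoe replicate 1, ePRBoe replicate 2 or ePRAoe replicate 2, with adjusted p of up to 0.189 for Tyrobp, 0.385 for Fcer1g, 0.428 for C1qc and 0.500 for C1qa over the alternatives. In ePRAoe against Wnt7acre 4 of 11 fell and 1, Cd14, rose, against 8.98% and 7.20% of all genes. In ePRBoe against Wnt7acre 4 of 11 rose (Tyrobp, Cd14, C1qa and Fcer1g) and 0 fell, against 6.41% and 2.48% of all genes. These 4 calls were lost without Wnt7acre replicate 3. In the sum of the 13 markers Wnt7acre replicate 1 was the highest control library, as for the class II chains. Lyz2 had 154 FPKM there, against 24.8 and 46.9 in Wnt7acre replicates 2 and 3. Most markers shared this top library, but among the controls Csf1r and Fcgr1 were highest in replicate 2 and Adgre1 in replicate 3. The 6 general leukocyte markers summed to 140 to 165 FPKM in ePRBoe, 45.6 to 61.1 in ePRAoe and 49.9 to 81.7 in Wnt7acre, and the T and natural killer cell markers (9 in the table) to 36.7 to 59.2, 16.7 to 27.2 and 10.9 to 19.2 FPKM.

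Markers of dendritic cells were low. The 9 antigen-presenting cell markers in the table summed to 13.05 to 13.9 FPKM in ePRBoe, 6.82 to 10.1 in ePRAoe and 5.90 to 12.3 in Wnt7acre, and Flt3, Xcr1, Clec9a, Cd209a, Ccr7 and Cd86 stayed at or below 0.820 FPKM in every library. Zbtb46, a transcription factor of classical dendritic cells, had 1.28, 2.24 and 1.73 FPKM in ePRBoe, 1.69, 0.502 and 0.251 in ePRAoe and 0.456, 0.456 and 1.23 in Wnt7acre. Cd83, a marker of mature dendritic cells, reached 8.66 FPKM in ePRBoe, 6.64 in ePRAoe and 6.92 in Wnt7acre. Clec9a, Cd209a and Ccr7 were listed at 0 in 1, 1 and 3 libraries. Itgax, an integrin of dendritic cells and macrophages, was called lower in ePRAoe (0.321 ± 0.0755 FPKM) than in Wnt7acre (2.46 ± 1.57 FPKM, SD, n = 3 each, log2 fold change -1.28, adjusted p = 0.0338), a call lost without any 1 of 7 libraries and with a pseudocount of 5 (highest adjusted p 0.165). Of the B cell markers Cd79b alone was in the table, at no more than 1.36 FPKM. The part of these cells in the class II values was not tested.

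**Figure D4:**
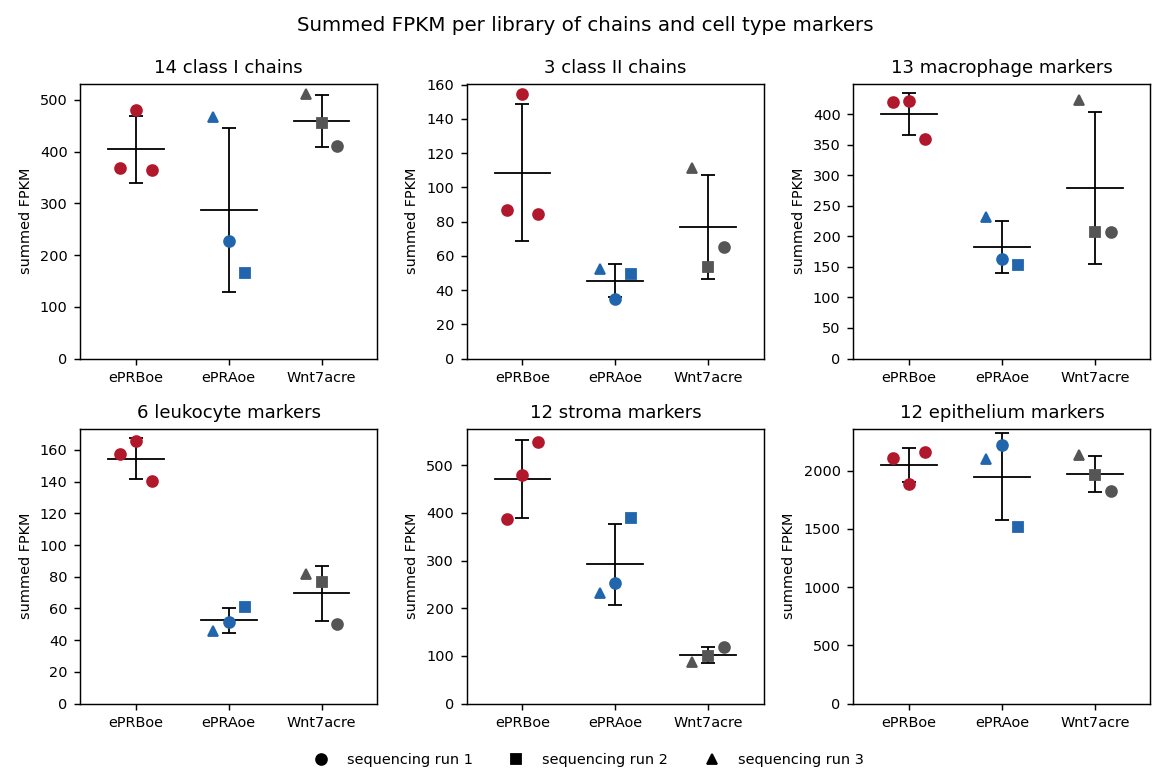
Summed FPKM in each library of the class I chains, the class II chains and 4 marker lists (points, shaped by sequencing run) with the mean and SD of 3 libraries per genotype, on linear axes that start at 0. The 3 class II chains sum to 84.2 to 155 FPKM in ePRBoe, 34.6 to 52.5 in ePRAoe and 53.6 to 111 in Wnt7acre, and the mean of the macrophage markers is also lowest in ePRAoe, while epithelium markers overlap between all genotypes.

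Partners of both pathways were read from the same fit. Of 10 tested class II partners, the endosomal proteases and their helpers, 4 fell and 0 rose in ePRAoe against Wnt7acre, where 8.98% of all genes fell and 7.20% rose. Ctsl, cathepsin L, which degrades the invariant chain, averaged 22.8 ± 7.82 FPKM in ePRAoe and 85.4 ± 18.4 FPKM in Wnt7acre (SD, n = 3 each, log2 fold change -1.90, adjusted p = 0.00105), a call that held under all 19 alternatives. Lgmn, an asparagine-specific protease, fell by 1.74 on the log2 scale, Ifi30, a lysosomal thiol reductase, by 0.99 and Ctss, cathepsin S, by 0.96 (adjusted p = 0.0103, 0.0235 and 0.0240). Lgmn and Ifi30 lost the call without replicate 2 or 3 of ePRAoe or Wnt7acre, and Ctss without replicate 1 or 2 of ePRAoe or replicate 1 or 3 of Wnt7acre, without a run term or with the 2 genotypes alone. In ePRBoe against Wnt7acre 0 of 10 passed, against 8.89% of all genes in either direction, and 0 had an unadjusted p under 0.05. Ctsl was higher in ePRBoe (52.3 ± 2.48 FPKM, SD, n = 3) than in ePRAoe (1.67, adjusted p = 0.0193), a call lost without ePRBoe replicate 1 or 2 or ePRAoe replicate 2 and without a run term.

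Of 16 class I partners, which include chaperones, aminopeptidases and proteasome subunits, 3 fell and 1 rose in ePRAoe against Wnt7acre, against 8.98% and 7.20% of all genes. Psmb5, the constitutive subunit that Psmb8 replaces, fell by 0.87 (adjusted p = 0.0103), Canx, the chaperone calnexin, by 0.48 (0.0275) and Ide, insulin-degrading enzyme, by 0.80 (0.0325), while Npepps, a cytosolic aminopeptidase, rose by 0.53 (0.0420). The constitutive counterparts Psmb5, Psmb6 and Psmb7 summed to 262 to 301 FPKM in ePRAoe, against 325 to 414 in Wnt7acre. The ratio of the 3 inducible to the 3 constitutive subunits was 0.336 to 0.484 in ePRBoe, 0.288 to 0.511 in ePRAoe and 0.309 to 0.619 in Wnt7acre, so the genotypes overlapped in it. In ePRBoe against Wnt7acre 0 of 16 passed, against 8.89% of all genes in either direction, and 1 had an unadjusted p under 0.05. The calls of Canx, Ide and Npepps were each lost without any 1 of at least 7 libraries, ePRBoe libraries among them, and with the 2 genotypes alone. That of Psmb5 was lost without ePRAoe replicate 2 or Wnt7acre replicate 3 or with a replicate block (highest adjusted p 0.0676).

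Upstream, Ifngr1, a chain of the interferon gamma receptor, fell to 12.1 ± 0.0928 FPKM in ePRAoe, against 22.8 ± 4.90 FPKM in Wnt7acre (SD, n = 3 each, log2 fold change -0.84, adjusted p = 0.0104), 1 of 10 interferon receptor genes called, against 16.2% of all genes in either direction. It lost the call without replicate 2 or 3 of ePRAoe or Wnt7acre (highest adjusted p 0.0638). Of 16 transcription factors of these promoters 2 fell and 1 rose, shares near the 8.98% and 7.20% of all genes, with Rfxap, a subunit of the factor that binds the X box, at -0.70 (adjusted p = 0.0414), Irf1 at -0.65 (0.0498) and Nfyc, a subunit of the Y box factor, at 0.47 (0.0488). These 3 calls were lost under 14 or 15 of 19 alternatives each. Of 12 tested genes induced by interferon gamma 4 fell and 0 rose in ePRAoe, against 8.98% and 7.20% of all genes, with a median log2 fold change of -0.81. Gbp2 and Gbp3, guanylate-binding proteins of cell defence, fell by 2.94 and 2.62 (adjusted p = 0.00170 each) under all 19 alternatives, and Irgm1 and Gbp7 by 1.14 and 1.13 (adjusted p = 0.0379 and 0.0399), both lost without a run term or any 1 of at least 6 libraries. Gbp2 averaged 1.91 ± 1.01 FPKM in ePRAoe and 22.2 ± 11.7 FPKM in Wnt7acre (SD, n = 3 each). In ePRBoe against Wnt7acre 2 of 12 fell and 0 rose, against 2.48% and 6.41% of all genes. Gbp2 fell by 1.36 and Gbp3 by 1.24 (limma adjusted p = 0.0390 and 0.0372). Both calls were lost without ePRBoe replicate 2 or 3, ePRAoe replicate 2 or Wnt7acre replicate 3.

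In ePRBoe against Wnt7acre 1 of 16 transcription factors rose, a share near the 6.41% of all genes called higher. This was Irf8, which is known from myeloid and B cells (log2 fold change 1.11, limma adjusted p = 0.0363). It averaged 3.00 ± 0.345 FPKM in ePRBoe and 1.16 ± 0.156 FPKM in Wnt7acre (SD, n = 3 each), and it lost the call without any 1 of 7 libraries (highest adjusted p 0.111). Of 5 tested class I-like molecules 1 rose, against 6.41% of all genes. The gene was Fcgrt, the neonatal Fc receptor chain that also pairs with beta-2 microglobulin. It averaged 8.08 ± 2.00 FPKM in ePRBoe and 1.97 ± 0.703 FPKM in Wnt7acre (SD, n = 3 each, log2 fold change 1.72, adjusted p = 0.0181), and the call was lost without ePRBoe replicate 2, ePRAoe replicate 2 or Wnt7acre replicate 3 (highest adjusted p 0.166). H2-Ke6, the member of neither class, had 15.9, 17.3 and 12.9 FPKM in ePRBoe, 10.2, 12.2 and 5.76 in ePRAoe and 14.7, 13.01 and 9.39 in Wnt7acre, with adjusted p of 0.297 or more in the 3 comparisons. It shared 96.3% of its stretches of 50 bases with the overlapping gene Gm20427.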

How the data were processed

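The authors deposited 1 table of FPKM, per the file headers, for 15158 genes in 9 libraries. The submitters' processing notes name mm10, STAR 2.5.2b and featureCounts 1.5.0-p1. Not given in the sources used here are the gene models, the handling of strand and of reads with several matches, and the depth of each library. No counting intervals are given, although the steps of the lowest members allowed their reads to be counted. Values were taken as log2(FPKM + 1), and folds are on that scale, which understates changes of low genes. Genes that reached 1 FPKM in 3 or more libraries (12347) were fitted with limma 3.58.1 in R 4.3.3 on all 9 libraries, with genotype and sequencing run as terms and variances moderated with a trend on mean level (residual degrees of freedom 4, prior 3.64). Adjustment was Benjamini-Hochberg over all genes of a comparison, two-sided, with a threshold of 0.05. The fit was tested on simulated data.

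The members and lists were chosen with earlier results of these data known. Values per library are given for called members and for B2m, H2-K1, H2-D1, Cd74, H2-Aa, H2-Ab1, H2-Eb1, Ciita and Nlrc5, and others were added after their values were seen. Of each list up to 4 called genes with the largest moderated t were named. Identifiers and positions are from GENCODE M21 (mm10). Shared sequence is the share of stretches of 50 bases of a gene's longest GENCODE transcript found in transcripts of other genes. Replicate numbers were not used as pairs, since samples of the same number did not deviate together. Counts leave out members that reached the filter through 1 of the genotypes compared alone (Nlrc5, H2-Oa), a choice made after their values were seen. Alternatives varied the pseudocount, the filter, the run term, the normalization, the variance trend and the libraries. In ePRAoe against Wnt7acre each run held 1 library of each genotype, so leaving out either of them gave the same fold. Such pairs of settings are not separate checks.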

Additional observations from a re-analysis of the deposited data

Results flagged for a closer look

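H2-T-ps and H2-DMa were the members whose ePRAoe libraries all lay below Wnt7acre while their ePRBoe libraries all lay above it. Of all genes tested, 16.2% had no overlap and were lower in ePRAoe, and 23.5% had no overlap and were higher in ePRBoe. The share of all genes with both was not counted, so whether the pattern is unusual among members was not tested. The difference between the overexpressing genotypes was a log2 fold change of 1.37 for H2-T-ps (limma adjusted p = 0.0706) and of 0.79 for H2-DMa (adjusted p = 0.232), neither of which passed.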

How the results depend on the processing

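The count of members called lower in ePRAoe against Wnt7acre was 4, 2 without a run term and 0 to 6 with 1 library left out. That of members called higher in ePRBoe against Wnt7acre was 0, and 1 each with no filter on low values, with quantile normalization and with no variance trend. In ePRBoe against ePRAoe it was 0, 3 with the 2 genotypes alone (Cd74, H2-T-ps and Psmb10) and 0 to 3 with 1 library left out. Over all genes the calls in ePRAoe against Wnt7acre numbered 1998, 1113 with a replicate block in place of the run term, 1116 with the 2 genotypes alone and 723 to 2705 with 1 library left out. In ePRBoe against Wnt7acre they numbered 1098, 653 where genes had to average 5 FPKM or more, 1786 without a run term and 231 to 1604 with 1 library left out. In ePRBoe against ePRAoe they numbered 40, 19 with no filter, 7 without a run term, 4 with the replicate block, 15 with quantile normalization, 22 with median-of-ratios factors, 585 with the 2 genotypes alone and 0 to 576 with 1 library left out. Why these counts moved was not tested.

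Signs turned for small folds that had not passed. B2m in ePRAoe was 0.0020 without ePRAoe or Wnt7acre replicate 1 (range with 1 library left out -0.16 to 0.0020). In ePRBoe against Wnt7acre, H2-K1 was -0.013 with median-of-ratios factors, -0.012 without ePRBoe replicate 2 and -0.036 without ePRAoe or Wnt7acre replicate 1 (range to 0.31), Psmb10 was -0.33 without a run term or with the replicate block and -0.0067 with the 2 genotypes alone or without ePRAoe replicate 2 (range to 0.87), and Tap1 was 0.19 without ePRBoe replicate 3 and 0.18 without Wnt7acre replicate 3 (lowest -0.44 without ePRBoe replicate 1). Nlrc5 in ePRBoe against ePRAoe was -0.10 with quantile normalization. With the replicate block Psmb10 lost its call in ePRAoe (adjusted p = 0.0981), and the other 3 called members kept theirs. Same-numbered libraries correlated in their deviations from group means at -0.23 to 0.17, so the numbers do not pair the samples. The sum of class I chains, taken without the 5 that share over 20% of their sequence with other genes (chosen after seeing the data, in place of protein identity, which was not run), averaged 372 FPKM in ePRBoe, 271 in ePRAoe and 433 in Wnt7acre, against 404, 287 and 460 FPKM over all 14. The median of all genes moved from 0.15 to -0.03 in ePRBoe against ePRAoe under quantile normalization. Members under 1 FPKM rest on few reads.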

Other observations

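Values of the lowest members fell on steps of 1 read (within 0.0011 FPKM), so that reads could be counted. H2-Oa had 14, 14 and 15 reads in ePRBoe, 4, 0 and 0 in ePRAoe and 10, 1 and 2 in Wnt7acre. H2-M2, a non-classical class I gene, had 16 reads in Wnt7acre replicate 1 and 1 in the other 8 libraries together. H2-Q10, known as a secreted class I chain of the liver, had 26 reads in Wnt7acre replicate 1, against 0 to 4 in each of the other libraries. The class II gene H2-DMb2 had 1, 21 and 40 reads in ePRAoe replicates 1 to 3, a wider spread than in ePRBoe (11, 6 and 25) or Wnt7acre (4, 13 and 15).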
